A study of Sus scrofa with 20 samples.

Results

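Smooth muscle contractile genes encode the filaments of the smooth muscle cell, the proteins bound to them, the kinase that starts contraction and the coactivator that switches the programme on. The set holds 10 genes chosen by name, ACTA2, ACTG2, MYH11, CNN1, TAGLN, DES, SMTN, LMOD1, MYLK and MYOCD. A row by that name was found for 8 of them among the 25764 genes of the deposited table. ACTG2 and MYH11 have no row by that name. The 20 libraries are bulk poly(A) RNA-seq of pig (Sus scrofa) cells. They comprised 5 libraries of porcine biliary tree stem cells (pBTSCs), and 15 libraries of liver cells sorted by surface antigens, 4 of CD45-/EpCAM+, 2 of CD45-/EpCAM-, 5 of CD45+, 2 of CD31+ and 2 of CD146+ cells. The pBTSCs came from neonatal gallbladder, which the study describes together with the cystic and common ducts. Libraries S2, S7 and S11 were from 3 piglets carrying an H2B-GFP transgene at the endogenous ACTB locus, aged 1 day for S2 and S7 and 2 days for S11. Libraries S15 and S20 were from 2 wild-type piglets aged 1 day. The piglet line is given by the study and was matched to the labels by storage number, the S number that names each library here. Genotype, age and donor of the liver cells are not given in the sources used here. The study defines biliary tree stem cells as CD45- and EpCAM+ and describes immunoselection that kept mature mesenchymal cells few. The selected cells then formed organoids, which by the study also held early mesenchymal cells. It names these as angioblasts and precursors of endothelial and stellate cells. No gene was deleted or treated in any group.

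Smooth muscle contracts when calcium and calmodulin activate myosin light chain kinase, whose product, phosphorylated myosin light chain, lets myosin pull on actin filaments. The genes of this machinery are switched on together by serum response factor and its coactivator myocardin at CArG boxes. The gallbladder wall and larger bile ducts contain visceral smooth muscle, whereas in the liver lobule the contractile proteins are known mostly from vessel walls, portal fibroblasts and activated stellate cells.

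Values are the authors' normalized counts, which are not corrected for transcript length, so levels are compared between libraries and not between genes. The depth estimated from the lowest values was 21200000 to 77800000 reads in 17 libraries, and under 2000000 in S15 (pBTSCs), S13 (CD45-/EpCAM+) and S22 (CD146+). Of the 160 member values, 0 were at or under 3 reads. The sort markers followed the labels only in part. PTPRC, which encodes CD45, ranged from 424 to 2687 in CD45+ and from 450 to 3027 in CD45-/EpCAM+ libraries, and EPCAM from 1175 to 2232 and from 1205 to 1779 in the same groups. EPCAM was 491 to 1090 in CD45-/EpCAM- libraries, below all CD45-/EpCAM+ libraries. In pBTSCs, which the study defines as CD45- and EpCAM+, PTPRC was 534 to 2140 and EPCAM 884 to 2075. Both lay within the liver ranges of 424 to 3027 and 491 to 2232. The summed level of 4 hepatocyte genes was 599617 to 1870450 in the 15 liver libraries, against 1189 to 29478 in the pBTSCs. Names of all groups, pBTSCs included, are therefore those of the labels. A gene was called where limma, fitted to all 20 libraries on log2(normalized count + 1), gave a Benjamini-Hochberg adjusted p-value under 0.05 over 15576 genes and an absolute log2 fold change above 1. Nothing in the labels says which liver libraries came from separate animals, so p-values there measure the spread between libraries, which may be technical.

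The contractile genes were highest in pBTSCs for every member by group mean, and lowest in CD45-/EpCAM- liver cells for every member. The share of all genes with such an order of means was not counted. In bulk RNA, fewer cells of a type and less RNA per cell cannot be told apart. The 8 genes together took 0.518 to 1.09% of each pBTSC library's total and 0.0777 to 0.488% of each liver library's, so these shares did not overlap. Their summed normalized counts did overlap, with the CD45+ library S8 at 111216, above S15 at 104934 and S20 at 100915. How often the shares of other gene sets separate in this way was not counted. For 4 members, CNN1, DES, LMOD1 and MYLK, the lowest of the 5 pBTSC libraries exceeded the highest of the 15 liver libraries. The same was true of 11.9% of all genes tested.

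**Figure D1:**
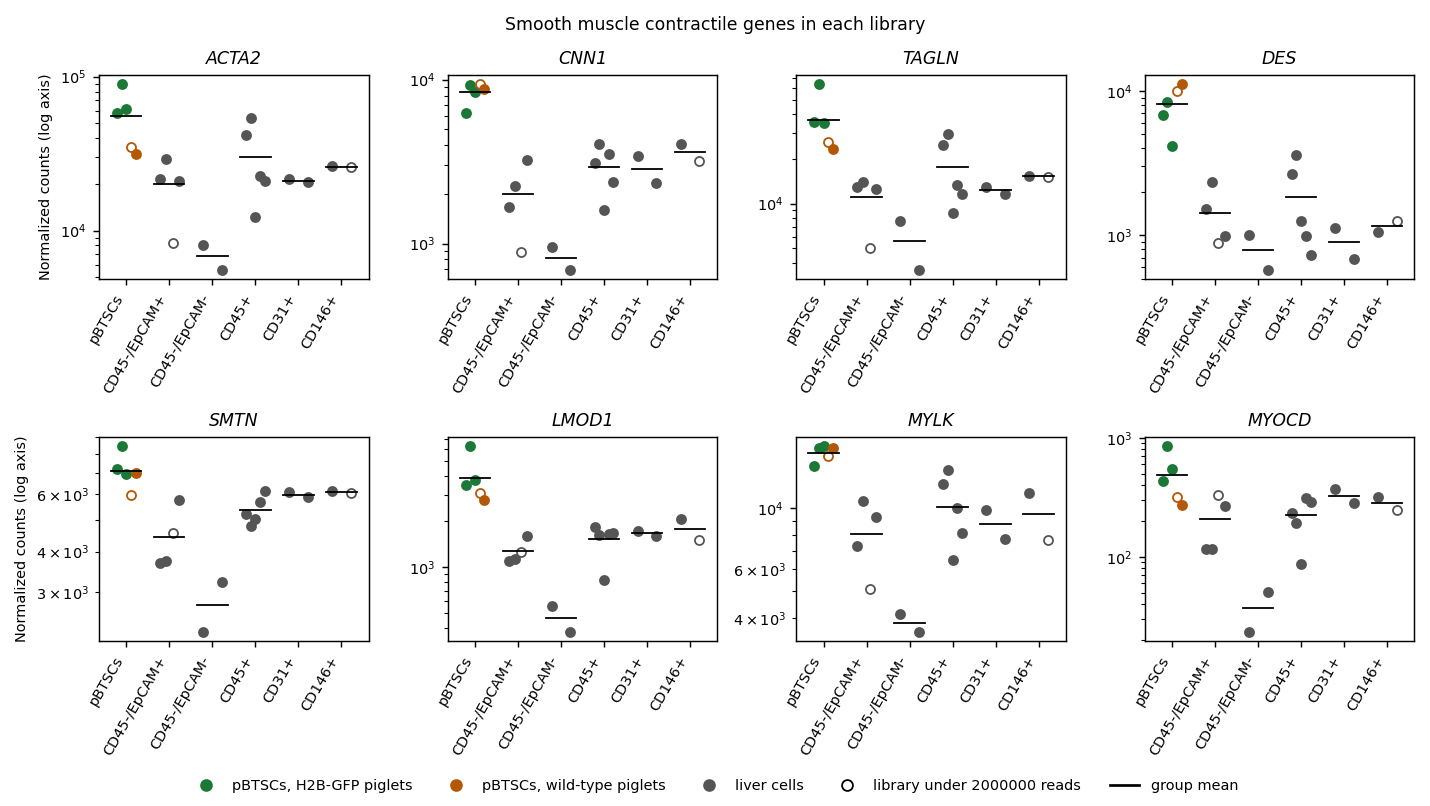
Normalized counts (log axis) of the 8 genes in each library, by group. Green points are pBTSCs of H2B-GFP piglets, orange points pBTSCs of wild-type piglets, grey points liver cells, open points the 3 libraries under 2000000 reads and bars the group means. For CNN1, DES, LMOD1 and MYLK every pBTSC point lies above every liver point, and for all 8 genes the CD45-/EpCAM- mean is the lowest.

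ACTA2 encodes smooth muscle alpha-actin, the thin filament actin of smooth muscle. Its normalized counts in pBTSCs were 57757 in S2, 89762 in S7 and 61974 in S11 from the H2B-GFP piglets, and 34760 in S15 and 31390 in S20 from the wild-type piglets. All 3 H2B-GFP libraries were above both wild-type libraries, and S7 was the highest of the 20. ACTA2 was at 21622 in S4, 29113 in S9, 8254 in S13 and 20870 in S19 among CD45-/EpCAM+ liver libraries, and at 8098 in S5 and 5539 in S14 among CD45-/EpCAM- libraries. In CD45+ libraries ACTA2 stood at 41703 in S3, 53876 in S8, 12217 in S12, 22448 in S18 and 20946 in S23. For CD31+ cells ACTA2 was 21541 in S16 and 20729 in S21, and for CD146+ cells 26290 in S17 and 25723 in S22. The CD45+ libraries S3 and S8 exceeded both wild-type pBTSC libraries, and the other 13 liver libraries lay below all 5 pBTSC libraries. The group means were 55128 ± 23620 (SD, n = 5) in pBTSCs, 30238 ± 17044 (SD, n = 5) in CD45+ and 6819 ± 1810 (SD, n = 2) in CD45-/EpCAM- cells. ACTA2 rose 2.82-fold over CD45-/EpCAM+ cells (log2 fold change 1.5, SE 0.43, limma adjusted p = 0.0115) and 7.64-fold over CD45-/EpCAM- cells. Against CD45+ cells the log2 fold change was 0.95 (limma adjusted p = 0.0834), which did not pass. The actin genes are near-identical in sequence, so the assignment of reads to ACTA2 is uncertain. ACTB and ACTG1, the cytoplasmic actins of most cells, had log2 fold changes of -0.01 and 0.11 against CD45-/EpCAM+ cells and were not called.

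DES encodes desmin, the intermediate filament protein of muscle cells, which stellate cells of several species also make. In the pBTSC libraries it was at 6836 in S2, 8325 in S7 and 4155 in S11 from the H2B-GFP piglets, and 10038 in S15 and 11200 in S20 from the wild-type piglets. Both wild-type libraries were above all 3 H2B-GFP libraries, the opposite order to ACTA2. DES was at 1517 in S4, 2350 in S9, 881 in S13 and 994 in S19 among CD45-/EpCAM+ liver libraries, and at 1004 in S5 and 576 in S14 among CD45-/EpCAM- libraries. In CD45+ libraries DES stood at 2650 in S3, 3626 in S8, 1268 in S12, 985 in S18 and 736 in S23. For CD31+ cells DES was 1124 in S16 and 687 in S21, and for CD146+ cells 1052 in S17 and 1262 in S22. The highest liver library, S8, was below the lowest pBTSC library, S11. The group means were 8111 ± 2765 (SD, n = 5) for pBTSCs and, for CD45-/EpCAM+ cells, 1435 ± 669.5 (SD, n = 4). DES was called higher in pBTSCs against all 5 liver groups, by 5.77-fold over CD45-/EpCAM+ cells (log2 fold change 2.53, SE 0.43, limma adjusted p = 1.81e-04), 10.1-fold over CD45-/EpCAM-, 4.96-fold over CD45+, 8.72-fold over CD31+ and 6.66-fold over CD146+ cells. With array weights, which count more variable libraries less, the call against CD146+ cells was lost (log2 fold change 2.50, limma adjusted p = 0.134).

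CNN1 encodes calponin 1, an actin-binding protein that restrains the myosin ATPase in differentiated smooth muscle. Normalized counts of calponin 1 were 6242 in S2, 9315 in S7 and 8432 in S11 from the H2B-GFP piglets, and 9428 in S15 and 8723 in S20 from the wild-type piglets. The pBTSC libraries of both lines spanned a narrow range, with the shallow library S15 highest and S2 lowest. CNN1 was at 1661 in S4, 2249 in S9, 888 in S13 and 3214 in S19 among CD45-/EpCAM+ liver libraries, and at 952 in S5 and 689 in S14 among CD45-/EpCAM- libraries. In CD45+ libraries CNN1 stood at 3111 in S3, 4073 in S8, 1606 in S12, 3523 in S18 and 2372 in S23. For CD31+ cells CNN1 was 3405 in S16 and 2333 in S21, and for CD146+ cells 4049 in S17 and 3206 in S22. Every liver library was below S2. The group means were 8428 ± 1290 (SD, n = 5) in pBTSCs, 3628 ± 596 (SD, n = 2) in CD146+ and 821 ± 185 (SD, n = 2) in CD45-/EpCAM- cells. CNN1, like DES and LMOD1, was called against all 5 liver groups, by 4.61-fold over CD45-/EpCAM+ cells (log2 fold change 2.21, SE 0.31, limma adjusted p = 3.06e-05) and 2.31-fold over CD146+ cells (log2 fold change 1.21, limma adjusted p = 0.0279).

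TAGLN encodes transgelin (SM22), an actin cross-linking protein and an early marker of the smooth muscle programme. Transgelin transcripts were at 35309 in S2, 63996 in S7 and 34813 in S11 from the H2B-GFP piglets, and 25909 in S15 and 23180 in S20 from the wild-type piglets. As for ACTA2, S7 was the highest of the 20 libraries and all H2B-GFP libraries exceeded both wild-type libraries. TAGLN was at 12930 in S4, 14035 in S9, 5011 in S13 and 12502 in S19 among CD45-/EpCAM+ liver libraries, and at 7672 in S5 and 3578 in S14 among CD45-/EpCAM- libraries. In CD45+ libraries TAGLN stood at 24751 in S3, 29356 in S8, 8715 in S12, 13332 in S18 and 11646 in S23. For CD31+ cells TAGLN was 12946 in S16 and 11669 in S21, and for CD146+ cells 15467 in S17 and 15010 in S22. Only the CD45+ libraries S3 and S8 reached into the pBTSC range, S8 being above both wild-type libraries and S3 above S20. TAGLN means were 36642 ± 16200 (SD, n = 5) for pBTSCs and, for CD45+ cells, 17560 ± 8971 (SD, n = 5). The rise was 3.32-fold over CD45-/EpCAM+ cells (log2 fold change 1.73, SE 0.40, limma adjusted p = 0.00239) and 2.17-fold over CD45+ cells (log2 fold change 1.12, limma adjusted p = 0.0291). Against CD146+ cells the log2 fold change of 1.17 did not pass (limma adjusted p = 0.0899).

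SMTN encodes smoothelin, an actin-associated protein of contractile smooth muscle. Smoothelin transcripts stood at 7168 in S2, 8459 in S7 and 6935 in S11 from the H2B-GFP piglets, and 5966 in S15 and 7004 in S20 from the wild-type piglets. S7 was highest and the shallow library S15 lowest. SMTN was at 3701 in S4, 3736 in S9, 4576 in S13 and 5787 in S19 among CD45-/EpCAM+ liver libraries, and at 2258 in S5 and 3224 in S14 among CD45-/EpCAM- libraries. In CD45+ libraries SMTN stood at 5226 in S3, 4793 in S8, 5026 in S12, 5696 in S18 and 6132 in S23. For CD31+ cells SMTN was 6104 in S16 and 5881 in S21, and for CD146+ cells 6147 in S17 and 6052 in S22. S15 was below 4 liver libraries, S16, S17, S22 and S23. The means were 7107 ± 891 (SD, n = 5) in pBTSCs, 6100 ± 67.4 (SD, n = 2) in CD146+ and 2741 ± 683 (SD, n = 2) in CD45-/EpCAM- cells. SMTN was called only against CD45-/EpCAM- cells, by 2.62-fold (log2 fold change 1.39, SE 0.19, limma adjusted p = 1.7e-05). Against CD45-/EpCAM+ cells it had an adjusted p of 0.00149 in limma with a log2 fold change of 0.69, under the fold threshold. Its log2 fold changes against CD31+ and CD146+ cells were 0.24 and 0.21, with 95% intervals from -0.16 to 0.63 and from -0.18 to 0.61.

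LMOD1 encodes leiomodin 1, which starts new actin filaments in smooth muscle. In pBTSCs its counts were 3477 in S2, 6272 in S7 and 3766 in S11 from the H2B-GFP piglets, and 3090 in S15 and 2764 in S20 from the wild-type piglets. S7 stood apart above the other 4 libraries, which lay close together. LMOD1 was at 1105 in S4, 1128 in S9, 1254 in S13 and 1611 in S19 among CD45-/EpCAM+ liver libraries, and at 559 in S5 and 374 in S14 among CD45-/EpCAM- libraries. In CD45+ libraries LMOD1 stood at 1852 in S3, 1622 in S8, 827 in S12, 1664 in S18 and 1680 in S23. For CD31+ cells LMOD1 was 1734 in S16 and 1613 in S21, and for CD146+ cells 2065 in S17 and 1514 in S22. The highest liver library, S17, was below the lowest pBTSC library, S20. LMOD1 means were 3874 ± 1393 (SD, n = 5) in pBTSCs, 1789 ± 389.9 (SD, n = 2) in CD146+ and 466 ± 131 (SD, n = 2) in CD45-/EpCAM- cells. The rise was 2.94-fold over CD45-/EpCAM+ cells (log2 fold change 1.56, SE 0.25, limma adjusted p = 1.01e-04), 8.10-fold over CD45-/EpCAM- cells and 2.10-fold over CD146+ cells.

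MYLK encodes myosin light chain kinase, the enzyme that starts contraction and that other cell types also use. Kinase transcripts were at 14198 in S2, 16481 in S7 and 16720 in S11 from the H2B-GFP piglets, and 15423 in S15 and 16382 in S20 from the wild-type piglets. The 5 pBTSC libraries were close together, with no order between the lines. MYLK was at 7287 in S4, 10628 in S9, 5077 in S13 and 9291 in S19 among CD45-/EpCAM+ liver libraries, and at 4153 in S5 and 3560 in S14 among CD45-/EpCAM- libraries. In CD45+ libraries MYLK stood at 12231 in S3, 13678 in S8, 6467 in S12, 10022 in S18 and 8141 in S23. For CD31+ cells MYLK was 9798 in S16 and 7708 in S21, and for CD146+ cells 11328 in S17 and 7659 in S22. S8 came nearest to the pBTSCs and lay just below S2. MYLK means were 15841 ± 1043 (SD, n = 5) in pBTSCs, 10108 ± 2932 (SD, n = 5) in CD45+ and 3856 ± 419 (SD, n = 2) in CD45-/EpCAM- cells. MYLK rose 2.03-fold over CD45-/EpCAM+ cells (log2 fold change 1.02, SE 0.23, limma adjusted p = 0.00202) and 4.11-fold over CD45-/EpCAM- cells. Its log2 fold changes of 0.70, 0.86 and 0.76 against CD45+, CD31+ and CD146+ cells stayed under the fold threshold.

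MYOCD encodes myocardin, the coactivator of serum response factor that is found in smooth and cardiac muscle. Its counts in pBTSCs were 432 in S2, 852 in S7 and 547 in S11 from the H2B-GFP piglets, and 320.3 in S15 and 272 in S20 from the wild-type piglets. S7 was highest, and the wild-type libraries were the lowest of the 5. MYOCD was at 117 in S4, 117 in S9, 330.1 in S13 and 267 in S19 among CD45-/EpCAM+ liver libraries, and at 23.3 in S5 and 50.5 in S14 among CD45-/EpCAM- libraries. In CD45+ libraries MYOCD stood at 234 in S3, 193 in S8, 86.3 in S12, 315 in S18 and 289 in S23. For CD31+ cells MYOCD was 372 in S16 and 281 in S21, and for CD146+ cells 319 in S17 and 249 in S22. Of the 15 liver libraries 6 were above S20, S13, S16, S17, S18, S21 and S23, whereas S5 held the least of the 20 libraries. In the shallow libraries MYOCD rested on few reads, an estimated 12.8 in S13, 4.77 in S22 and 25.5 in S15. MYOCD means were 485 ± 231 (SD, n = 5) in pBTSCs, 327 ± 64.7 (SD, n = 2) in CD31+ and 36.9 ± 19.2 (SD, n = 2) in CD45-/EpCAM- cells. MYOCD rose 12.6-fold over CD45-/EpCAM- cells (log2 fold change 3.66, SE 0.54, limma adjusted p = 3.9e-05), 2.38-fold over CD45-/EpCAM+ cells (log2 fold change 1.25, SE 0.43, limma adjusted p = 0.0285) and 2.18-fold over CD45+ cells (limma adjusted p = 0.0411). Against CD31+ and CD146+ cells the log2 fold changes were 0.46 and 0.66, with 95% intervals from -0.67 to 1.59 and from -0.47 to 1.79.

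In the order of group means, pBTSCs stood first for every member, and the group in second place was CD45+ for ACTA2, DES, TAGLN and MYLK, CD146+ for CNN1, SMTN and LMOD1, and CD31+ for MYOCD. The first and second groups had separate ranges for CNN1, DES, LMOD1 and MYLK and overlapping ranges for ACTA2, TAGLN, SMTN and MYOCD, and 19.7% of all genes had separate ranges in these 2 places, whichever groups held them. Between the liver groups other than CD45-/EpCAM-, neighbouring ranges overlapped, except that both CD146+ libraries were above both CD31+ libraries for ACTA2 and TAGLN, by log2 differences of 0.30 and 0.31, as for 8.71% of genes. CD45-/EpCAM- cells, in last place, lay wholly below the group before them for ACTA2, SMTN, LMOD1, MYLK and MYOCD, and overlapped it for CNN1, TAGLN and DES. For 25.5% of genes the group in last place lay wholly below the one before it.

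Comparison by comparison, 7 of the 8 members rose in pBTSCs against CD45-/EpCAM+ liver cells, all but SMTN, where 14.8% of all genes tested rose. None of the 8 fell, where 10.3% of genes did, and every pBTSC library was above every CD45-/EpCAM+ library for 7 members, as for 19.2% of genes. The median log2 fold change was 1.53 over the members and 0.084 over all genes. Without the 3 shallow libraries 6 members were called, where 15.1% of genes rose, with MYLK at 0.83. Calls also depended on single libraries, MYLK on S13 or S4, and MYOCD on S4, S9, S11 or S7, each of which ended the call when left out.

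All 8 members rose against CD45-/EpCAM- cells, where 20% of all genes rose and 16.6% fell. The groups did not overlap for any of the 8, as for 33.6% of genes. The median log2 fold change was 2.98 over the members and 0.036 over all genes. No member lost its call without any single library of either group, although without S5 or S14 the CD45-/EpCAM- cells are 1 library, whose spread is then assumed to be that of the other groups. These 2 liver libraries, S5 and S14, both have storage numbers up to S14, and with only such libraries fitted all 8 members were again called, against 19.9% of genes.

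Against CD45+ cells 5 members rose, CNN1, DES, LMOD1, MYOCD and TAGLN, where 11% of all genes rose and 9.54% fell. Every pBTSC library was above every CD45+ library for 4 members, as for 17.8% of genes. The median log2 fold change was 1.12 over the members and 0.067 over all genes. Leaving out S12 or any one of the pBTSC libraries S2, S7 and S11 lowered the count to 3, with MYOCD and TAGLN lost each time. MYOCD was also lost without S3 or S8, and TAGLN without S18 or S23. ACTA2 passed without S8, and also without the 3 shallow libraries, where its log2 fold change was 1.09 (limma adjusted p = 0.0426) and 6 members were called against 13.8% of genes.

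PECAM1 (CD31) and MCAM (CD146) mark endothelium, and MCAM also marks pericytes and smooth muscle of vessels. PECAM1 was 28048 to 36576 in pBTSCs and 4803 to 28778 in liver libraries. MCAM was 4331 to 7656 in pBTSCs and 1131 to 5226 in liver libraries, so both ranges overlapped. Against CD31+ cells 4 members rose, CNN1, DES, LMOD1 and TAGLN, where 6.73% of all genes rose and 7.62% fell, and the median log2 fold change was 1.21 over the members and 0.087 over all genes. No overlap with CD31+ cells was seen for 6 members and 27.4% of genes. TAGLN was near the threshold (log2 fold change 1.48, limma adjusted p = 0.0488) and was lost without S16, S21, S11, S2 or S7. LMOD1 was lost without S16, S21 or S7 and CNN1 without S21, so that DES alone was called in the absence of S21. Against CD146+ cells 3 members rose, CNN1, DES and LMOD1, where 14.5% of all genes rose and 7.75% fell, and the medians were 1.02 and 0.18. No overlap was seen for 6 members and 25.4% of genes. Without the 3 shallow libraries, or without S22 alone, only DES was called there, and 4.87% of genes in the first case, with S17 as the only CD146+ library. With array weights 0 of the 8 were called. CNN1 was also lost without S17, where MYLK passed, and LMOD1 without S7. The CD31+ and CD146+ sorts hold 2 libraries each, so that leaving out 1 leaves a single library, and all 4 have storage numbers from S15.

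**Figure D2:**
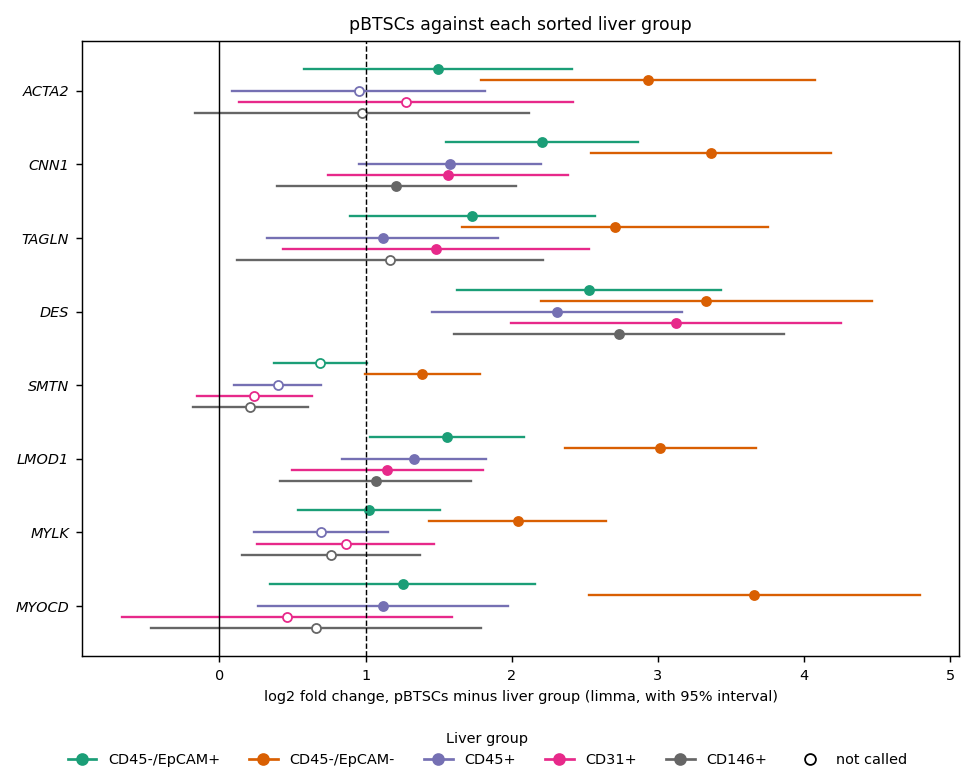
Log2 fold change of each gene in pBTSCs minus each liver group, from limma with 95% intervals; open points were not called and the dashed line marks the fold threshold of 1. All 40 points lie above 0. DES, CNN1 and LMOD1 are filled in all 5 comparisons, and the CD45-/EpCAM- points are the farthest to the right for each gene.

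The scaling of the libraries moved all genes together. With library totals made equal, the median log2 fold change over all genes went from 0.084 to 0.39 against CD45-/EpCAM+, from 0.036 to 0.51 against CD45-/EpCAM-, from 0.067 to 0.32 against CD45+, from 0.087 to 0.38 against CD31+ and from 0.18 to 0.46 against CD146+ cells. The members' medians went to 1.83, 3.45, 1.37, 1.51 and 1.31. Of all calls the share that was higher in pBTSCs went from 59.0 to 72.8%, from 54.7 to 75.5%, from 53.6 to 67.1%, from 46.9 to 61.9% and from 65.1 to 76.2% in the same order.

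Within the liver, all 8 members had a lower mean in CD45-/EpCAM- than in CD45-/EpCAM+ cells, and 2 were called. LMOD1 fell by 1.46 (SE 0.32, limma adjusted p = 0.0276) and MYOCD fell by 2.41 (SE 0.56, limma adjusted p = 0.0317) on the log2 scale, where 2.03% of all genes fell and 0.77% rose. Of all calls 27.5% were higher, and 14.9% with libraries rescaled to the same total. The other 6 had log2 fold changes from -1.44 (ACTA2) to -0.70 (SMTN) and did not pass. Without the 3 shallow libraries CNN1 (-1.5) and MYLK (-1.22) were called as well, where 4.1% of genes fell, also when S13 alone was left out. Both of the first calls, LMOD1 and MYOCD, were lost with array weights (limma adjusted p = 0.0930 and 0.138) and with only these 2 groups fitted (limma adjusted p = 0.345 for each), where 0 genes were called. Both were lost without S19 or S5 as well, and that of LMOD1 also without S14. The summed level of 9 pericyte and mural genes was 5329 to 8477 in the CD45-/EpCAM- libraries and 13442 to 36767 in the CD45-/EpCAM+ libraries, and 3 of the 9 were called lower. Their part in the result was not tested. CD146+ against CD45-/EpCAM+ cells gave 0 of 8 members called by limma, as it gave 0 of 15576 genes, with 2 members (CNN1 at 0.995 and SMTN at 0.48) and 2842 genes (18.2%) at an unadjusted p under 0.05.

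Liver values were close together in the later storage numbers and spread in the earlier ones. Across the 4 sorts of libraries S16 to S19, which are labelled CD31+, CD146+, CD45+ and CD45-/EpCAM+, the highest library was 1.08 to 1.40 times the lowest, depending on the gene, with a median of 1.25. Across S21 to S23, labelled CD31+, CD146+ and CD45+, the same ratio was 1.04 to 1.84. In the earlier stretch S3 to S5, which holds CD45+, CD45-/EpCAM+ and CD45-/EpCAM- cells in that order, the ratio was 2.31 to 10.1, and in S12 to S14, with the same 3 labels, 1.56 to 6.54. Between S8 and S9, labelled CD45+ and CD45-/EpCAM+, it was 1.28 to 2.09. Each pBTSC library is followed in storage number by a run of liver libraries, 1 of them CD45+. In all 5 runs the pBTSC library was above the CD45+ library for 7 members, ACTA2 among them (by 1.38 to 5.07 times), and in 4 runs for MYOCD (0.941 to 6.34 times), where 27.1% of genes were above in all 5. Donors are not given, so whether libraries of one run share an animal is not known. Storage numbers are those of the labels and are not said to mark a batch.

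**Figure D3:**
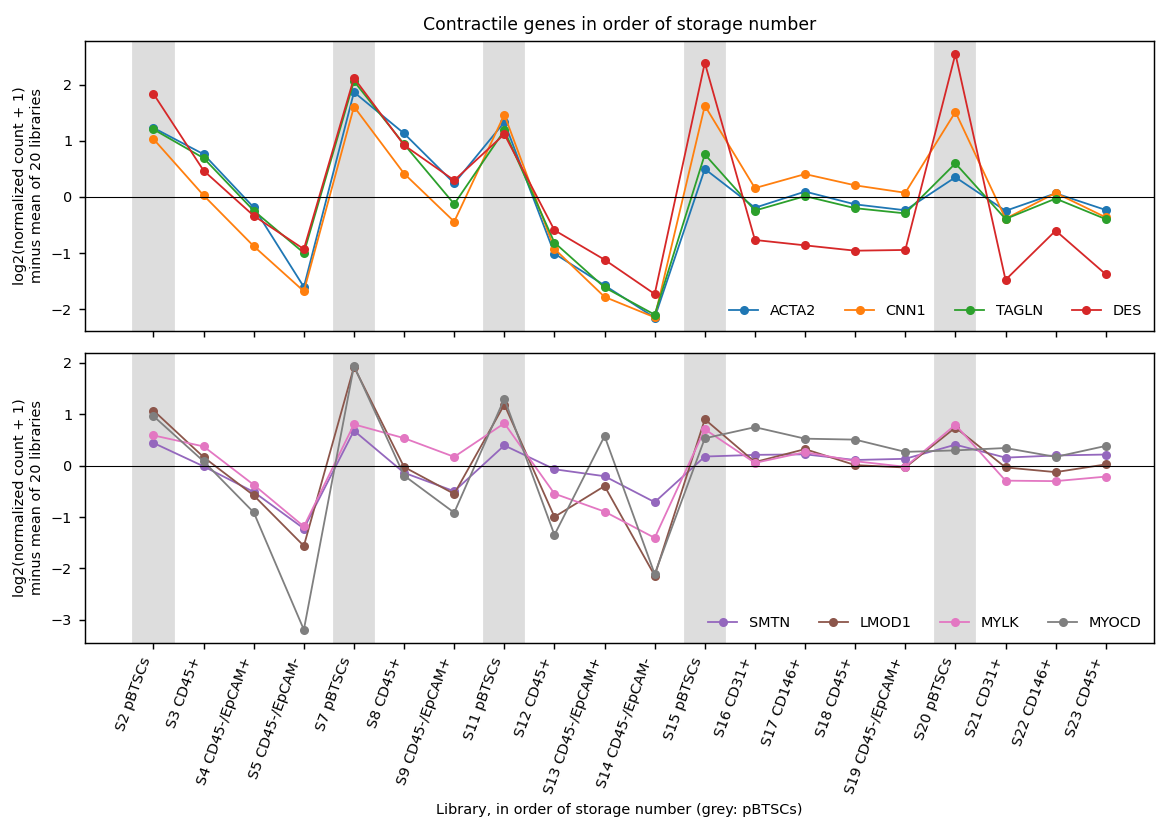
Each gene's log2(normalized count + 1) minus its mean over the 20 libraries, with libraries in order of storage number and pBTSCs on grey. Liver libraries from S16 lie close together for each gene whatever their sort, those up to S14 spread widely, and DES peaks in S15 and S20 while MYOCD does not.

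The pBTSCs of the 2 piglet lines differed in order for several members. ACTA2, TAGLN, MYOCD and LMOD1 were higher in all 3 H2B-GFP libraries than in both wild-type libraries, and DES was lower in all 3. Such separation of 3 from 2 libraries held for 18.1% of 14912 genes upwards and 19.8% downwards. In limma fitted to the 5 pBTSC libraries alone, 0 of 8 members were called, where 0.402% of genes were higher and 1.37% lower in H2B-GFP piglets. At an unadjusted p under 0.05 there were 18.5% of genes and 4 members, ACTA2 (log2 fold change 1.05, SE 0.24, adjusted p = 0.10 in limma), MYOCD (0.99, adjusted p = 0.163), TAGLN (0.81, adjusted p = 0.229) and DES (-0.78, adjusted p = 0.230). CNN1 and SMTN had log2 fold changes of -0.20 and 0.21, with 95% intervals from -0.65 to 0.25 and from -0.13 to 0.55. MYLK was at -0.01, from -0.34 to 0.32, and at 0.088 with libraries rescaled to the same total.

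Summed levels of other cell type genes differed between the lines, where 0.402% of all genes were called higher and 1.37% lower in H2B-GFP piglets. The summed level of 6 fibroblast genes, among them COL1A1 and DCN, was 199925 to 584594 in the H2B-GFP and 880141 to 919517 in the wild-type libraries, with 1 of 6 called lower and none at 0. The 4 hepatocyte genes summed to 1189 to 3774 and 23780 to 29478, with 3 of 4 called lower, and the 4 leukocyte genes to 2080 to 2825 and 5851 to 6352, with 1 of 4 called lower. The 9 pericyte and mural genes summed to 53464 to 58791 and 37326 to 44413, with 1 of 9 called higher. Without the shallow library S15 the wild-type group is S20 alone, and the calls went to 0 for fibroblast, leukocyte and pericyte genes and to 2 of 3 for hepatocyte genes. Their part in the members' values was not tested. The line cannot be told apart from the storage number, since all H2B-GFP libraries are up to S14 and all wild-type libraries from S15. RNA integrity cannot be told apart from the line either. The study lists lower RNA integrity numbers for S2, S7 and S11 than for S20, with S7 lowest, and none for S15. The part of RNA integrity in the members' values was not tested.

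Fits within each storage range gave other values for some members, and the difference between the ranges was called for 0 of 8. From S15 the CD45-/EpCAM+ cells are 1 library, S19, whose spread is assumed to be that of the other groups, and the pBTSCs are 2, of which S15 is shallow. With libraries up to S14 alone, MYOCD was 1.82 (SE 0.53, limma adjusted p = 0.0232) above CD45-/EpCAM+ and 1.89 above CD45+ cells on the log2 scale, and with libraries from S15 alone 0.15 (SE 0.30, limma adjusted p = 0.861) and -0.03. DES went the other way, with 2.08 and 1.43 up to S14 and 3.41 and 3.64 from S15. CNN1 had 1.53 and 1.65 against CD45+ cells. From S15, CNN1 and DES were the 2 members called against each of CD45-/EpCAM+ (S19 alone), CD45+, CD31+ and CD146+ cells, where 2.94, 4.87, 4.90 and 6.14% of all genes rose. Up to S14, 7 members were called against CD45-/EpCAM+ and 4 against CD45+ cells, where 15.9 and 11.1% of genes rose. That difference was tested with an interaction term over the pBTSC, CD45-/EpCAM+ and CD45+ libraries. Of the 8 members 0 were called, where 1.09% of 15448 genes were called higher and 0.563% lower. At an unadjusted p under 0.05 there were 17.1% of genes and 4 members, MYOCD (-1.83, SE 0.60, adjusted p = 0.145 in limma), DES (1.81, SE 0.61, adjusted p = 0.153), SMTN (-0.61, adjusted p = 0.170) and LMOD1 (-0.97, adjusted p = 0.216).

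**Figure D4:**
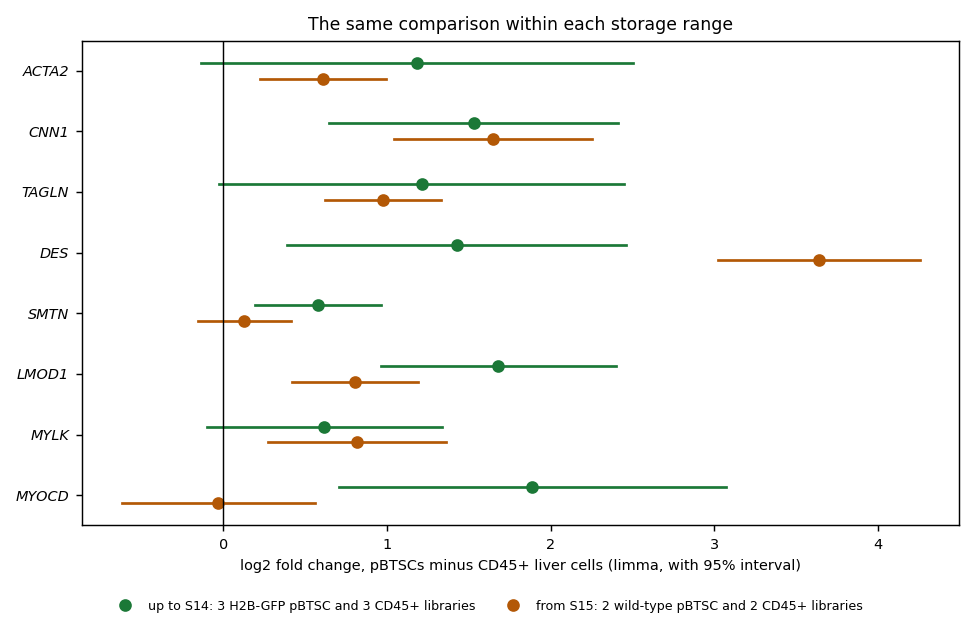
Log2 fold change of pBTSCs minus CD45+ liver cells, with 95% intervals from limma, fitted to libraries up to S14 (green) and from S15 (orange). The pBTSCs are of H2B-GFP piglets up to S14 and of wild-type piglets from S15, and the genotype of the liver cells is not given. MYOCD is at 1.89 and -0.03, DES at 1.43 and 3.64, and CNN1 at 1.53 and 1.65.

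Many genes that work with the members also rose in pBTSCs. Of 20 contractile partners tested against CD45-/EpCAM+ cells, 12 rose and 0 fell, where 14.8 and 10.3% of all genes did, with a median log2 fold change of 1.19. The largest changes were in PDLIM3 (2.54), an alpha-actinin-binding protein, SYNPO2 (1.97) and SYNM (1.94), which bind actin and desmin filaments respectively, PPP1R12B (1.91), a myosin phosphatase subunit, FLNA (1.81), an actin cross-linker, and MYL9 (1.62), the regulatory light chain that MYLK phosphorylates. MYL9 was 10928 to 20211 in pBTSCs and 1836 to 10447 in liver libraries. ROCK1 (0.30), ROCK2 (0.53) and CALD1 (0.60) were among the 8 not called. Against CD45+, CD31+ and CD146+ cells 8, 9 and 8 of the 20 rose, where 11, 6.73 and 14.5% of all genes did, and against CD45-/EpCAM- cells 17, where 20% did. Without the 3 shallow libraries 12 rose over CD45-/EpCAM+ and 0 over CD146+ cells, of which S17 is then the only library.

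Of 9 genes of channels and calcium handling, 7 rose against CD45-/EpCAM+ cells (14.8% of all genes) and 0 fell, with a median log2 fold change of 2.18. They included KCNMA1 (log2 fold change 3.40) and KCNMB1 (2.18), the subunits of the large-conductance potassium channel, CACNA1C (1.55), the pore of the L-type calcium channel, RYR2 (2.33), CACNB2 (2.74) and PLN (2.46), the last at only 15.8 to 47.7 normalized counts in pBTSCs. KCNMA1 was 809 to 1369 in pBTSCs and 23.4 to 448 in liver libraries. Of 10 receptor and cGMP pathway genes 7 rose, again beside 14.8%, and 0 fell, with a median of 1.24. CHRM2 (4.09) and CHRM3 (2.89) encode the muscarinic receptors of visceral smooth muscle, CCKAR (3.30) the receptor for cholecystokinin, which contracts the gallbladder, and EDNRA (1.80) the endothelin A receptor. PRKG1 (1.37) and GUCY1B3 (1.11) belong to the relaxing cGMP pathway. CHRM3 was at 3 reads or fewer in 3 liver libraries, and CHRM2, CCKAR, CACNB2 and PLN in 2 each. CHRM2, CHRM3, CACNB2 and PLN had a lowest liver value of 0. CCKAR was 79.3 to 628 in pBTSCs and 7.80 to 52.2 in liver libraries, without overlap. Rises of channel genes numbered 5, 2 and 2 of 9 against CD45+, CD31+ and CD146+ cells, where 11, 6.73 and 14.5% of all genes rose. For receptor genes the numbers were 3, 2 and 3 of 10, and 1 fell against each of CD31+ and CD146+ cells. There 7.62 and 7.75% of all genes fell. With CD45-/EpCAM- cells as the comparison, 6 channel and 9 receptor genes rose, where 20% of genes did.

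Of 9 regulators of the smooth muscle programme 0 fell and 5 rose, where 10.3 and 14.8% of all genes did, with a median of 1.40 over the 9. Those that rose were FOXF2 (7.27), NKX2-3 (6.03), BARX1 (2.63), FOXF1 (1.53) and MKL2 (1.40). MKL2 encodes a myocardin-related coactivator, and the others are transcription factors of gut and foregut mesenchyme. NKX2-3 was 608 to 1282 in pBTSCs and 0 to 68.1 in liver libraries, and 2 of the 15 liver libraries held 3 reads of it or fewer. BARX1 was 9.05 to 51.5 in the H2B-GFP and 0 to 0.48 in the wild-type pBTSC libraries, and all 15 liver libraries held 3 reads or fewer. FOXF2 was that low in 11 liver libraries. Liver values reached at most 5.37 for FOXF2 and 1.41 for BARX1, so both passed the filter of 10 normalized counts only through pBTSC libraries. That filter all but fixed their direction, so their place among the 5 is no evidence for the list. BARX1 was also at 3 reads or fewer in 2 pBTSC libraries. The log2 fold changes of FOXF2, NKX2-3 and BARX1 depend on the pseudocount. SRF, the partner of myocardin, was at 1295 to 2742 in pBTSCs and 768 to 1926 in liver libraries and was not called (log2 fold change 0.22, limma adjusted p = 0.407). Of 5 striated muscle genes tested, CKM (2.48) and ACTC1 (1.97) rose, with summed levels of the list at 167 to 291 in pBTSCs and 58.2 to 780 in liver libraries. Both were low, CKM at 22.7 to 74.2 and ACTC1 at 8.46 to 25.1 in pBTSCs. Each was at 3 reads or fewer in 1 pBTSC library, and in 2 and 3 liver libraries respectively. ACTC1 is an actin gene, so the assignment of reads to it is uncertain too. The regulators that rose numbered 5, 2 and 2 of 9 against CD45+, CD31+ and CD146+ cells, where 11, 6.73 and 14.5% of genes did. With CD45-/EpCAM- cells as the comparison, 5 regulators rose, where 20% of genes did.

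**Figure D5:**
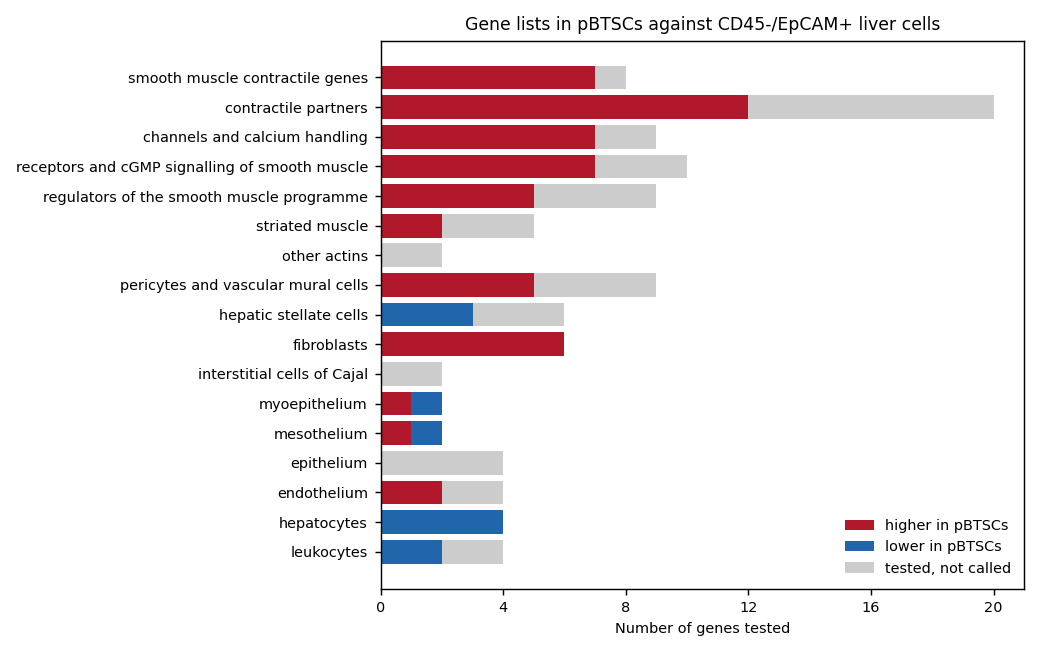
Number of genes of each list that were called higher (red), called lower (blue) or tested and not called (grey) in pBTSCs against CD45-/EpCAM+ liver cells. Contractile genes and their partners, channels, receptors, regulators, striated muscle, pericyte, fibroblast and endothelial genes hold red and no blue. Hepatocyte genes are all blue.

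Markers of other cell types that make contractile proteins were read beside the members, again against CD45-/EpCAM+ cells, where 14.8% of all genes rose and 10.3% fell. Of 9 pericyte and mural genes 5 rose, HIGD1B (3.66), NDUFA4L2 (2.29), CSPG4 (1.56), NOTCH3 (1.52) and RGS5 (1.48), and the list summed to 37326 to 58791 in pBTSCs and 5329 to 42277 in liver libraries. All 6 fibroblast genes rose, LUM (7.04) the most, and their sums of 199925 to 919517 and 18016 to 74222 did not overlap. Of 6 stellate cell genes LRAT (-6.86), COLEC11 (-4.09) and HGF (-1.71) fell and none rose. LRAT, which stores vitamin A in stellate cells, was 2.15 to 13.2 in pBTSCs and 176 to 1323 in liver libraries. Of 4 endothelial genes VWF (2.39) and PECAM1 (1.29) rose. KRT14 (1.23) rose and TP63 (-2.27) fell among 2 myoepithelial genes, WT1 (3.62) rose and UPK3B (-2.88) fell among 2 mesothelial genes, and 0 of 4 epithelial genes and 0 of 2 genes of interstitial cells of Cajal were called. All 4 hepatocyte genes fell, and so did CD68 and CSF1R of 4 leukocyte genes. Without the 3 shallow libraries RGS5, PDGFRA and CSF1R lost their calls, as did GUCY1A3, GUCY1B3 and ACTC1 of the lists above. Pericyte genes that rose numbered 1, 1 and 2 of 9 against CD45+, CD31+ and CD146+ cells, where 11, 6.73 and 14.5% of genes did. Fibroblast genes that rose there numbered 6, 5 and 6 of 6. With CD45-/EpCAM- cells as the comparison, all 9 and all 6 rose, where 20% of genes did. Of the 6 stellate cell genes 3 fell and 0 rose against each of CD45+ and CD31+ cells, where 9.54 and 7.62% of genes fell. Against CD146+ cells 2 fell and 1 rose, and against CD45-/EpCAM- cells 2 fell and 2 rose, where 7.75 and 16.6% of genes fell. The part of these cell types in the members' values was not tested.

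The genes whose profile was most like the mean of the members were sought among 13289 named genes, as the smallest root-mean-square difference of centred log2 values over the 17 deep libraries. MYL9 was nearest (0.121), followed by CRISPLD2 (0.165), FBLIM1 (0.193), TPM1 (0.195), VCL (0.204), GPC1 (0.208), FADS3 (0.211), FLNA (0.211), MEIS3 (0.214) and BRF2 (0.229). TPM1, a tropomyosin of the thin filament, was 14981 to 26674 in pBTSCs and 2806 to 15148 in liver libraries. VCL, the actin-anchoring protein vinculin, was 10608 to 17069 and 2147 to 8434. Of the members themselves LMOD1 was nearest to their mean, in place 10 with 0.220, then CNN1 (0.261), TAGLN (0.273), MYLK (0.302) and ACTA2 (0.307). SMTN (0.538), MYOCD (0.624) and DES (0.777) were farther, DES in place 3540. The mean contains each member, so members have a head start in this measure.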

How the data were processed

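Poly(A) RNA of 5 pBTSC and 15 sorted liver cell preparations was sequenced from stranded libraries, and the labels gave the group of each library. The deposited table gives, for each gene and library, a normalized count, treated here as a signal. The submitters' processing notes name STAR, Salmon and DESeq2; versions, genome build and annotation are not given in the sources used here, so no coordinates are printed. Low values lay within 0.05 reads of a whole read in 60.3 to 84.3% of cases per library, so count tests were not run, and depth was estimated as the library total over the value of 1 read.

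Tests were made on log2(normalized count + 1) with limma 3.58.1 under R 4.3.3, using moderated variances with an intensity trend. Genes needed 10 or more normalized counts in 2 or more libraries, and p-values were adjusted by the Benjamini-Hochberg method over all of them. A fold change is on that scale and understates the change of low genes. The piglet lines were fitted on the 5 pBTSC libraries alone, and the interaction on pBTSC, CD45-/EpCAM+ and CD45+ libraries. The fit was tested on simulated data. Each library was counted as 1 sample. Libraries of 1 group differed from each other by at least 1.40 times counting noise, which does not show that they came from separate animals. Tables and figures were made with Python 3.11.15, numpy 2.4.6, pandas 2.3.3 and matplotlib 3.10.9.

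The members and gene lists were chosen with earlier results of these data known. Named are all members, up to 6 called genes of each list with the largest change against CD45-/EpCAM+ cells, and the 10 genes nearest in profile. Other genes named beside them (ACTB, ACTG1, SRF, ROCK1, ROCK2, CALD1, GUCY1A3, the sort markers) were chosen after their values were seen. Alternatives were other pseudocounts, filters, scalings, weights, priors and fits, each replicate left out in turn and the 3 shallow libraries left out; fits within a storage range and with a block of runs of storage numbers were chosen after seeing the data.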

Additional observations from a re-analysis of the deposited data

Results flagged for a closer look

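In 24 groups of 4 or 5 libraries, 1 gene at a time, 3 held a library whose gap to the nearest of the others was unusually large for the group's range (Dixon's test at 95%); chance gives about 1 in 20. LMOD1 in the pBTSC library S7 was 6272, above the other 4, with a gap of 0.714 of the range. LMOD1 in the CD45+ library S12 was 827, below the other 4, with a gap of 0.775. TAGLN in the CD45-/EpCAM+ library S13, which is under 2000000 reads, was 5011, below the other 3, with a gap of 0.830.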

How the results depend on the processing

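The labels give no replicate number or donor shared between groups. A replicate block of 5 runs of storage numbers, each starting at a pBTSC library and chosen after seeing the data, ended the calls of MYOCD against CD45+ cells and in CD45-/EpCAM- against CD45-/EpCAM+ cells, where 1 member stayed called. Deviations of a pBTSC library and the CD45+ or CD45-/EpCAM+ libraries of its run correlated at -0.035 to 0.26 across genes, and not all pairs were above 0.1, so the runs were not taken as pairs. Over 1272 recomputed log2 fold changes of members, 1178 kept their direction and side of the threshold, 65 lost and 17 gained a call, and 12 changed sign, none of them called. For CD45-/EpCAM- against CD45-/EpCAM+ cells the members called, 2 of 8, were 0 with array weights, 4 with equal totals, 0 with only the groups compared and 4 without the shallow libraries, and 0 to 4 with 1 library left out; the genes called, 436, were 39, 718, 0 and 879, and 0 to 1478. Against CD146+ cells the 3 members were 0 with array weights, 5 with equal totals and 1 without the shallow libraries, and 1 to 3 with 1 library left out; 3462 genes became 1683 with array weights, 1554 without the shallow libraries and 2030 from S15, and 1152 to 4587. Against CD31+ cells the 4 members were 6 with equal totals, 5 with array weights or only the groups compared, 2 from S15 and 1 to 4 with 1 library left out, and 2236 genes became 3804 with array weights and 1018 to 2158. Against CD45+ cells the 5 members were 2 from S15 and 3 to 5, and 3202 genes became 1860. Against CD45-/EpCAM+ cells the 7 members were 2 from S15 and 5 to 7, and 3905 genes became 1322. Against CD45-/EpCAM- cells 5698 genes became 3390 to 5862. Between the lines 264 genes became 150 with the filter in 5 libraries, 24 without the shallow libraries and 24 to 450. CD146+ against CD45-/EpCAM+ cells went from 0 genes to as many as 1708, without S17. The cause of these shifts was not tested; leaving out libraries lowers n. Sign changes were DES, 0.081 with storage range as a covariate, 0.11 with the replicate block and 0.068 without S9 (-0.40 to 0.068 over single libraries left out), and MYLK, -0.0041 with array weights and -0.022 without S17 (-0.022 to 0.54), in CD146+ against CD45-/EpCAM+ cells. For H2B-GFP against wild-type MYLK was 0.088 with equal totals, 0.013 with median ratios, 0.063 without S2 and 0.031 without S20 (-0.056 to 0.063). The interaction of MYLK was 0.14 without the shallow libraries. MYOCD from S15 was -0.13 against CD31+ and -0.031 against CD45+ cells. For the interaction only a pseudocount of 10 and leaving out the shallow libraries were tried. In S22, with the lowest depth, 3 reads are worth 156 normalized counts. Promoter motifs were not analysed here.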
